A study of Homo sapiens with 6 samples.

Results

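Heat shock proteins and their DNAJ partners were examined in K562 cells, a human leukemia line that carries the BCR-ABL fusion. Members were the table rows whose RefSeq protein accession belongs to a DNAJA, DNAJB or DNAJC gene with a number, a numbered HSPA gene, HSPB1, HSPD1, HSPE1, HSPH1, HSP90AA1, HSP90AB1, HSP90B1, TRAP1 or HSF1, with pseudogenes left out and 1 row kept per gene, the row with the most reads over all libraries. This gave 65 members, 23 heat shock protein genes and HSF1 together and 42 DNAJ genes, among 19053 genes with a symbol. In all, the members hold 163 of the 109018 rows, because each isoform of a protein has a row of its own.

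The comparison asked which genes differ when the imatinib-upregulated lncRNA-IUR-5 is knocked down. The sh-IUR-5 group holds 3 libraries of K562 cells that stably express a short hairpin RNA (shRNA) against this lncRNA, called lncRNA-IIRX in the sample labels, and the sh-luc group holds 3 libraries of K562 cells with an shRNA against luciferase. Both hairpins were delivered by a lentivirus made with the pSIH-H1-GFP vector, in which the H1 promoter drives the hairpin, so both groups carry the vector and GFP, and the labels name no drug treatment in either group. The methods speak of separate groups of cells but do not say whether the lines are clones, and by their names libraries 2 and 3 form a common series in either group. The lncRNA has no protein accession and its level was not analysed here.

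Cells keep their proteins folded with HSP70 ATPases, which bind exposed hydrophobic stretches of a client, and with J-domain proteins (the DNAJ genes), which bring clients to an HSP70 and trigger its ATP hydrolysis. HSP110 proteins exchange the nucleotide, HSP90 acts on late folding states such as those of kinases and steroid receptors, HSP60 with HSP10 forms a folding chamber in mitochondria, and small heat shock proteins hold unfolded clients without ATP. HSF1 is the transcription factor that induces the cytosolic set after heat through heat shock elements, arrays of inverted GAA units, while unfolded protein in the endoplasmic reticulum (ER) induces the ER set partly through ER stress elements. BCR-ABL is a known client of HSP90.

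The promoter letters of the members that are the classic targets of these pathways are shown because the results on HSF1 targets and ER chaperones are read against them. Promoter windows, from 250 bases before to 50 bases after a start, were taken from RefSeq on GRCh38.p14 and were found for 59 of the 65 members. Capitals mark the 3-unit heat shock element, units GAA, TTC and GAA with 2 free bases between neighbours, searched on both strands, in 63 bases or fewer of each window, read 5′ to 3′ along the gene's strand.
HSP90AA1 (chr14:102087095-102087157, minus strand): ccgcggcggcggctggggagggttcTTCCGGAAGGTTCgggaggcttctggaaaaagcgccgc
HSP90AB1 (chr6:44247753-44247815, plus strand): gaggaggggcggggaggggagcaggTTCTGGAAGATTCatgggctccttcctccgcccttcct
HSP90AB1 (chr6:44247806-44247868, plus strand): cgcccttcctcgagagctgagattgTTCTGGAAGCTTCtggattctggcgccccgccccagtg
HSPA8 (chr11:123062154-123062216, minus strand): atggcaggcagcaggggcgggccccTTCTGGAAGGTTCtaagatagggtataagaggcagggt
HSPD1 (chr2:197500043-197500090, minus strand): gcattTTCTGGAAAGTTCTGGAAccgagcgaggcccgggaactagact
DNAJA1 (chr9:33025251-33025313, plus strand): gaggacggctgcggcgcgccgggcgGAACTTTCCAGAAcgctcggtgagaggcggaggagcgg
DNAJB6 (chr7:157336848-157336910, plus strand): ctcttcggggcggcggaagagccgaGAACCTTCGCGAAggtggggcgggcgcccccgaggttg
This element stood in 7 of the 59 members (11.9%), against 166 of all 27305 genes with a window (0.608%) and 30 of 7359 genes tested here (0.408%). The other member with it was HSPA6, which was hardly read in these cells. A further HSPA8 copy at -230 is not shown. The HSPD1 capitals join overlapping copies on both strands, at -245 and -240 from its start at 197499840. Its other listed start, 197500274, lies upstream of them.

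The shorter element GAANNTTC, which the longer one contains, stood in 15 of the 59 members (25.4%), against 8.21% of all genes with a window. It is shown in capitals for the stress-inducible HSP70 pair, whose windows were almost the same.
HSPA1A (chr6:31815412-31815469, plus strand): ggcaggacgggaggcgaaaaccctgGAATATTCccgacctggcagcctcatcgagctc
HSPA1B (chr6:31827608-31827665, plus strand): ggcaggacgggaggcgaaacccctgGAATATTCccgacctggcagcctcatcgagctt
Capitals in the next windows mark the ER stress element, CCAAT and CCACG with 9 free bases between them, in the promoters of the main ER chaperones. It stood in these 2 members and in 25 of the 27305 genes (0.0916%), and HSP90B1 holds a further copy on the other strand at -89.
HSPA5 (chr9:125241366-125241434, minus strand): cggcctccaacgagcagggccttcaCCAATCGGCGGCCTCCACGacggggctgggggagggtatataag
HSP90B1 (chr12:103930191-103930259, plus strand): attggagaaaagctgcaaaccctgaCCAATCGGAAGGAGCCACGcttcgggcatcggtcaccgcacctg
A match of letters is a description of the window, not a measured binding site.

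Levels are given as RPKM, the reads of a row divided by its coding length and by all reads of the library, as the authors scaled them. Fold changes are log2 values of sh-IUR-5 over sh-luc fitted to the read counts with edgeR after TMM scaling, a scaling that assumes most rows do not change. TMM factors were 0.925 to 0.938 (sh-luc) and 1.05 to 1.11 (sh-IUR-5), so a fold change is lower than the ratio of the RPKM means, and with total-read scaling the median log2 fold change over all tested rows was 0.21 in place of 0.005. Total reads ran from 21023739 to 31481109 per library, and the member rows took 0.729% to 0.893% of them. All 10 K562 marker genes were above a mean RPKM of 1. Of 8 markers of other cells 3 were above it (EPCAM, LYZ and PTPRC), with MS4A1 at 0 in every library and a summed level of 166 to 193 RPKM in sh-luc and 183 to 207 in sh-IUR-5. The summed K562 list, mostly fetal and embryonic globin RNA, was lower in sh-IUR-5 (15663 to 16319 RPKM against 19459.8 to 21744), and its part in the results was not tested. Fewer cells of a kind and less RNA per cell cannot be told apart in such samples.

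Of the 65 members, 54 reached the minimum mean RPKM of 1 and were tested, 19 of the heat shock protein and HSF1 group and 35 DNAJ genes. In sh-IUR-5, 9 were higher and 11 lower at an adjusted p under 0.05, or 37.0% of those tested, against a background of 45.9% of the 8873 genes tested (22.4% higher and 23.5% lower). Thus the members were called no more often than genes in general, and their changes were small. At the kept row and with TMM scaling no member changed 2-fold, which 1.79% of genes did. Another 2 rows of DNAJC6 were past 2-fold (log2 fold changes 1.01 and 1.04), and with total-read scaling HSPA13 and DNAJC6 were too (1.13 and 1.02). The median absolute log2 fold change was 0.17 in the members and 0.28 over all tested genes, and the signed medians were -0.03 and -0.007. TMM-scaled levels of the groups did not overlap for 26 members (12 higher, 14 lower), against 54.1% of all tested genes. Each library was left out in turn, and 13 of the 20 called members passed in all 6 fits.

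**Figure D1:**
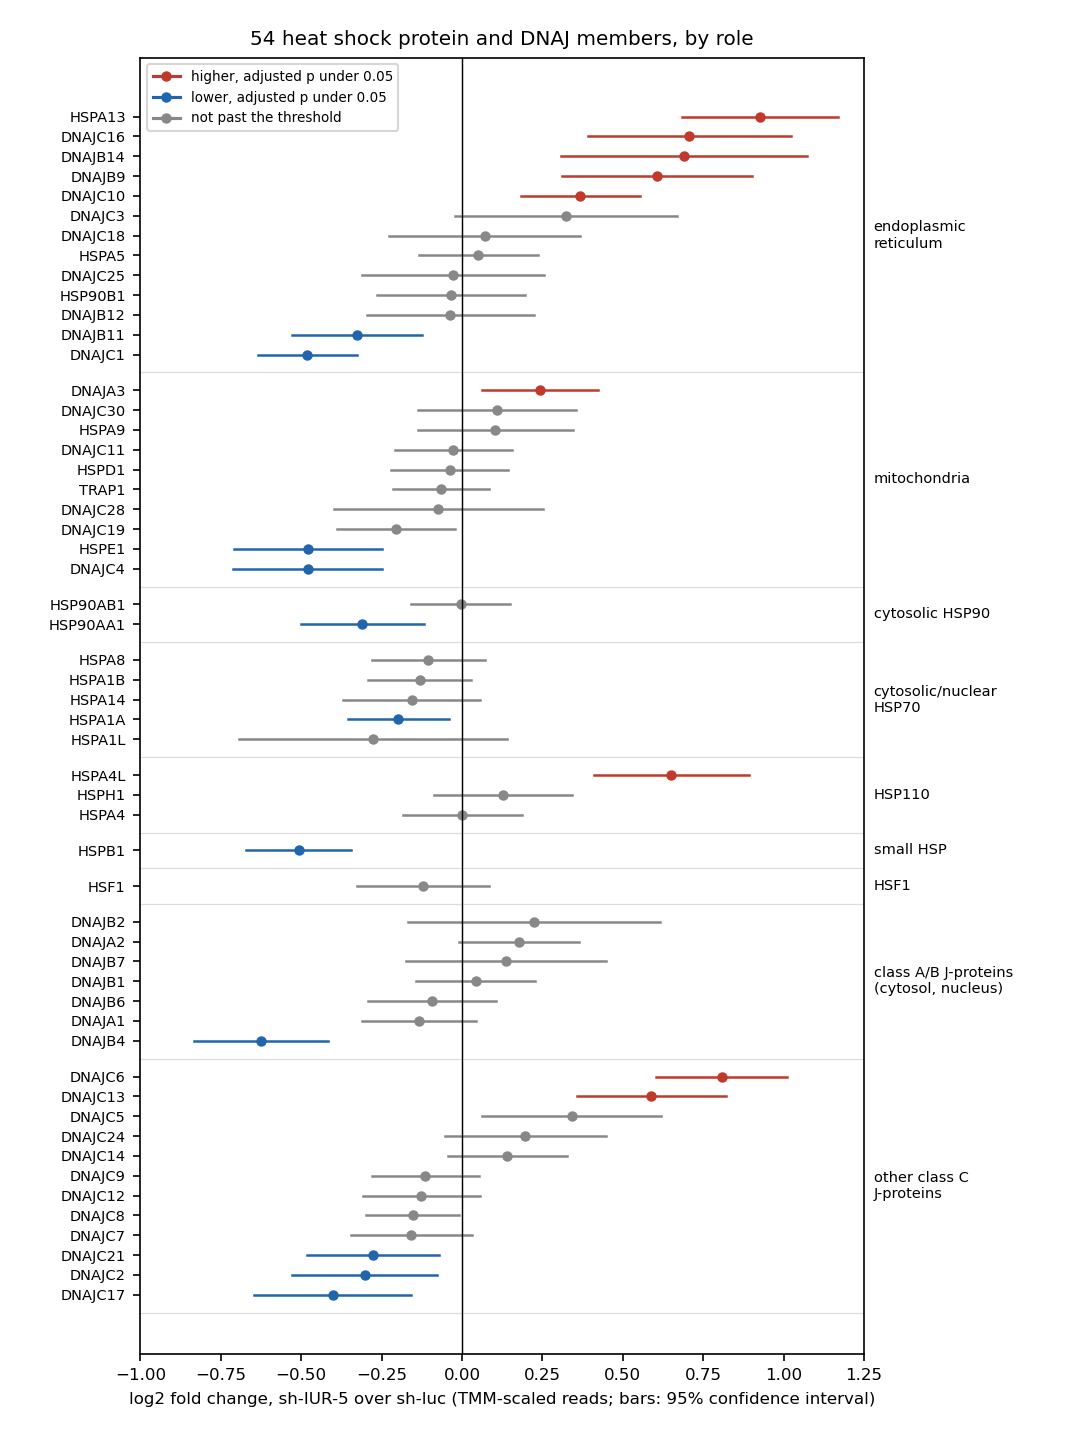
Log2 fold change (x axis, sh-IUR-5 over sh-luc after TMM scaling, 3 libraries a group) of each of the 54 tested members, grouped by role. Points are estimates and bars 95% confidence intervals; red and blue mark the 9 higher and 11 lower members, and the 5 higher ER members stand at the top.

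The ER group, the largest role group tested, had 5 of 13 members higher and 2 lower, or 53.8% called against the 45.9% of all tested genes. With TMM scaling the main chaperones of the compartment, HSPA5 and HSP90B1, did not pass. HSPA13 (NP_008879.3), a microsomal HSP70 relative that lacks the peptide-binding domain, had the largest fold change of the 54. It had 14.4, 15.0 and 13.6 RPKM in sh-IUR-5 libraries 1, 2 and 3, from 477 to 640 reads, against 5.27, 6.99 and 7.56 RPKM in sh-luc libraries, from 174 to 225 reads. The groups lay far apart, with a log2 fold change of 0.93 ± 0.12 (SE, n = 3 and 3, edgeR adjusted p = 8.07e-06).

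The other ER members that rose are J-proteins. DNAJC16 (NP_056106.1), an ER membrane protein, read 4.45, 3.13 and 3.13 RPKM in sh-IUR-5 and 2.23, 1.58 and 1.94 in sh-luc, a log2 fold change of 0.71 ± 0.15 (SE, edgeR adjusted p = 0.00124). DNAJB14 (NP_001026893.1), a membrane J-protein with its J domain in the cytosol, read 2.62, 2.85 and 2.48 RPKM against 1.17, 1.44 and 1.71, a log2 fold change of 0.69 ± 0.18 (SE, edgeR adjusted p = 0.0063). Its other 2 tested rows did not pass (0.33 and 0.25), and 73.2% of its coding sequence is near-identical to another gene, ENSG00000259924. DNAJB9 (NP_036460.1), which helps clear misfolded proteins and restrains the stress sensor IRE1, read 10.2, 9.79 and 8.36 RPKM against 4.91, 4.88 and 6.51, a log2 fold change of 0.61 ± 0.14 (SE, edgeR adjusted p = 0.00247). In these 3 genes every sh-IUR-5 library was above every sh-luc library. DNAJC10 (NP_061854.1), a disulfide reductase of ER-associated degradation, was also apart, at 17.2, 17.9 and 18.8 RPKM against 11.0, 12.6 and 13.0, with a log2 fold change of 0.37 ± 0.09 (SE, edgeR adjusted p = 0.00324). Its call was lost once each library's trend on coding length was removed (0.24, edgeR adjusted p = 0.051).

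DNAJC1 and DNAJB11 went the other way. DNAJC1 (NP_071760.2), an ER membrane protein that binds ribosomes, read 63.5, 65.3 and 66.8 RPKM in sh-IUR-5 and 81.8, 80.0 and 76.8 in sh-luc. The groups did not overlap, and the log2 fold change was -0.48 ± 0.07 (SE, edgeR adjusted p = 5.87e-05), with all 3 of its tested rows lower. DNAJB11 (NP_057390.1), the soluble J-protein partner of HSPA5, read 39.4, 47.1 and 48.7 RPKM against 45.0, 52.5 and 50.9. Its RPKM overlapped between groups, and the log2 fold change of -0.33 ± 0.10 (SE, edgeR adjusted p = 0.0123) became -0.12 with total-read scaling and no longer passed (edgeR adjusted p = 0.28). A transcript of another gene, ENSG00000283149, shares 42.1% of its coding sequence.

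HSPA5 (NP_005338.1), the ER HSP70 also called BiP, read 106, 125 and 129 RPKM in sh-IUR-5 and 92.2, 108 and 105 in sh-luc. These ranges overlapped, and its log2 fold change was 0.05, with a 95% confidence interval of -0.13 to 0.24 (edgeR adjusted p = 0.685). With total-read scaling it passed as higher (0.25, edgeR adjusted p = 0.0129). HSP90B1 (NP_003290.1), the ER HSP90 called GRP94, read 346, 442 and 456 RPKM against 308, 416 and 391, with a log2 fold change of -0.03 and an interval of -0.26 to 0.20 (edgeR adjusted p = 0.835). Both hold the ER stress element shown above, and for both these intervals leave out a change as large as that of HSPA13. Among the rest, DNAJC3, an HSP70 partner and inhibitor of the kinase PERK, was at 1.98 ± 0.22 RPKM against 1.39 ± 0.09 (SD, n = 3 and 3). At this kept row it did not pass with TMM scaling (log2 fold change 0.32, edgeR adjusted p = 0.132) but did with total-read scaling (0.53, edgeR adjusted p = 0.0162). Its other tested row passed as higher with TMM scaling (0.56, edgeR adjusted p = 0.0251). DNAJB12, DNAJC18 and DNAJC25 lay between -0.04 and 0.07.

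Ratios of related members within a library do not depend on how libraries are scaled, and 5 such pairs were compared after their values had been seen. HSPA13 stood at 0.135, 0.120 and 0.105 of the HSPA5 level per length in sh-IUR-5 and at 0.0571, 0.0650 and 0.0721 in sh-luc. The groups did not overlap, and the exact two-sided permutation p was 0.1, the smallest that 3 libraries against 3 can give (0.125 by Benjamini-Hochberg over the 5 pairs).

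**Figure D2:**
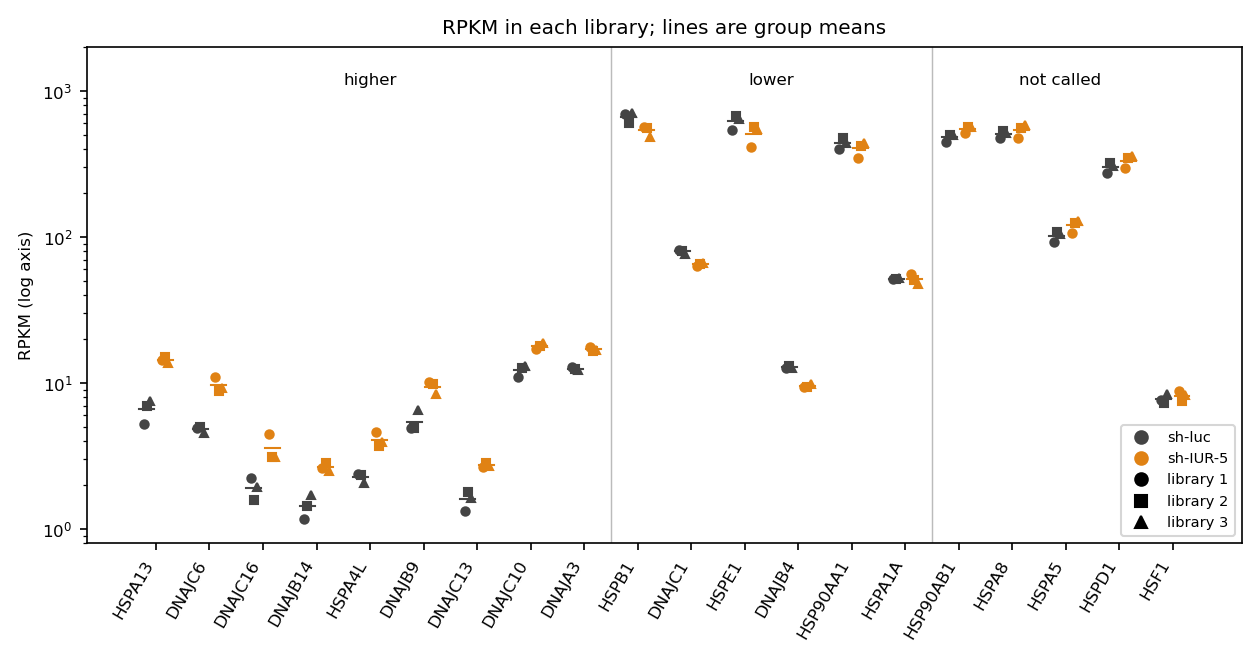
RPKM (y axis, log scale) of 20 members in each library, with sh-luc in grey, sh-IUR-5 in orange, a symbol per library and a line at the group mean. The 9 higher members lie mostly under 20 RPKM with the groups apart, HSPB1, DNAJC1 and DNAJB4 are apart in the other direction, and the abundant HSP90AB1, HSPA8, HSPA5 and HSPD1 have library 1 lowest in each group.

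In mitochondria 1 of 10 tested members was higher and 2 were lower, or 30.0% called against the 45.9% of all tested genes. HSPE1 (NP_002148.1), the HSP10 lid of the folding chamber, read 413, 564 and 551 RPKM in sh-IUR-5 and 544, 678 and 644 in sh-luc. Library 1 was the lowest of each group, so that the RPKM ranges overlapped, while the log2 fold change was -0.48 ± 0.11 (SE, edgeR adjusted p = 0.00231). With limma on log2(RPKM + 0.1), which keeps total-read scaling, it did not pass (-0.30, limma adjusted p = 0.0666). HSPD1 (NP_955472.1), the HSP60 that forms the chamber, read 295, 345 and 361 RPKM against 274, 322 and 306, with a log2 fold change of -0.04 and a 95% confidence interval of -0.22 to 0.14 (edgeR adjusted p = 0.756).

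HSPE1 and HSPD1 lie head to head on chromosome 2, and the start of HSPE1 lies 105 and 539 bases from the 2 listed starts of HSPD1. The ratio of the 2 genes did not overlap between groups. HSPE1 stood at 1.40, 1.63 and 1.53 times the HSPD1 level per length in sh-IUR-5 and at 1.99, 2.11 and 2.11 times in sh-luc. The ratio was 1.52 ± 0.12 against 2.07 ± 0.07 (SD, n = 3 and 3, exact two-sided permutation p = 0.1, 0.125 adjusted over the 5 pairs). Such a ratio still holds any trend on coding length, here 309 against 1722 bases. The log2 fold changes of HSPE1 and HSPD1, -0.48 and -0.04 in the main fit, were -0.29 and -0.12 with the length trend removed. With GC and length trends removed they were -0.34 and -0.24, so the 2 genes then differed less. The HSPE1 row has a coding length of 309 bases and 7 genes with near-identical transcripts, and HSPD1 has 2, so reads of these genes could be split by the counting.

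DNAJC4 (NP_005519.2), a J-protein placed in the mitochondrial group, read 25.2, 21.6 and 20.4 RPKM against 31.8, 26.6 and 23.6, a log2 fold change of -0.48 ± 0.11 (SE, edgeR adjusted p = 0.00237). It did not pass with total-read scaling (-0.27, edgeR adjusted p = 0.0652) or with GC and length trends removed (-0.28, edgeR adjusted p = 0.052). DNAJA3 (NP_005138.3), the J-protein of the mitochondrial HSP70, read 17.5, 16.6 and 16.7 RPKM against 12.9, 12.4 and 12.3. Its groups were apart, with a log2 fold change of 0.24 ± 0.09 (SE, edgeR adjusted p = 0.0338), and it passed in only 2 of the 6 fits that leave out a library. HSPA9, the mitochondrial HSP70 called mortalin, had 294 ± 44 RPKM against 240 ± 40.1 (SD, n = 3 and 3) and did not pass (log2 fold change 0.10, edgeR adjusted p = 0.509), although it did without sh-IUR-5 library 1 (0.24, edgeR adjusted p = 0.0191) and with total-read scaling (0.31, edgeR adjusted p = 0.0255). TRAP1, the mitochondrial HSP90, was at 81.2 ± 1.60 RPKM against 74.3 ± 4.07 at the kept row (log2 fold change -0.07, edgeR adjusted p = 0.499). Its other 2 tested rows were lower (-0.22 and -0.19, edgeR adjusted p = 0.0264 and 0.0439). DNAJC19, part of the import motor, DNAJC11, DNAJC28 and DNAJC30 ranged from -0.20 to 0.11 and did not pass at the kept row. The other DNAJC19 row was lower (-0.38, edgeR adjusted p = 0.0181).

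Of the cytosolic HSP90 pair, 1 was lower, while 23.5% of all tested genes were lower. HSP90AA1 (XP_011535020.1), the stress-inducible form, read 349, 420 and 443 RPKM in sh-IUR-5 and 398, 476 and 443 in sh-luc. The ranges overlapped, and its log2 fold change was -0.31 ± 0.09 (SE, edgeR adjusted p = 0.012). HSP90AB1 (NP_001258898.1), the constitutive form, read 515, 568 and 564 RPKM against 447, 502 and 497, with RPKM higher in every sh-IUR-5 library but a log2 fold change of -0.0037 and a 95% confidence interval of -0.16 to 0.15 (edgeR adjusted p = 0.975). The direction of HSP90AB1 therefore depended on the scaling, and with total-read scaling it was higher (0.20, edgeR adjusted p = 0.0101) while HSP90AA1 no longer passed (-0.11, edgeR adjusted p = 0.279). Leaving out sh-luc library 2 also ended the call of HSP90AA1 (-0.24, edgeR adjusted p = 0.0854). Free of scaling, HSP90AA1 stood at 0.734 ± 0.054 of the HSP90AB1 level per length in sh-IUR-5 against 0.910 ± 0.033 in sh-luc (SD, n = 3 and 3), with no overlap. The exact two-sided permutation p was again 0.1 (0.125 adjusted over the 5 pairs). Both genes have near-identical pseudogenes (3 similar genes for HSP90AA1, 2 for HSP90AB1).

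Of the cytosolic and nuclear HSP70s, 1 of 5 tested passed. HSPA1A (NP_005336.3), a stress-inducible HSP70, read 56.2, 50.8 and 47.3 RPKM in sh-IUR-5 and 51.3, 51.1 and 52.3 in sh-luc. The means were almost equal, and the log2 fold change of -0.20 ± 0.07 (SE, edgeR adjusted p = 0.0439) turned to 0.01 with total-read scaling (edgeR adjusted p = 0.927). It passed in only 1 of the 6 fits that leave out a library, with edgeR adjusted p up to 0.203. HSPA1B (NP_005337.2) is 99.8% identical to it, so that reads cannot be told apart with certainty, and read 49.9, 43.6 and 42.7 RPKM against 44.5, 41.9 and 43.9 (log2 fold change -0.13, edgeR adjusted p = 0.181). The ratio of HSPA1A to HSPA1B was 1.13 ± 0.03 in sh-IUR-5 against 1.19 ± 0.03 in sh-luc and overlapped (exact two-sided permutation p = 0.2). HSPA8 (XP_011541100.1), the constitutive HSC70, read 476, 555 and 584 RPKM against 473, 536 and 511, with a log2 fold change of -0.10 and a 95% confidence interval of -0.28 to 0.07 (edgeR adjusted p = 0.344). HSPA14, a ribosome-associated relative, and HSPA1L had log2 fold changes of -0.16 (edgeR adjusted p = 0.241) and -0.28 (edgeR adjusted p = 0.291). Without sh-IUR-5 library 1, HSPA1L passed (-0.63, edgeR adjusted p = 0.00518).

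HSPA4L (NP_001304310.1), an HSP110 that exchanges nucleotide on HSP70, read 4.61, 3.71 and 3.93 RPKM in sh-IUR-5 and 2.40, 2.35 and 2.08 in sh-luc. It rose with no overlap, by a log2 fold change of 0.65 ± 0.11 (SE, edgeR adjusted p = 0.000239), and all 5 of its tested rows were higher. The more abundant HSPA4 of the same family read 153, 176 and 182 RPKM against 132, 163 and 152, with a log2 fold change of 0.00092 and a 95% confidence interval of -0.18 to 0.19 (edgeR adjusted p = 0.994). HSPH1, the third HSP110, had 5.34 ± 0.07 RPKM against 4.28 ± 0.47 (SD, n = 3 and 3) and a log2 fold change of 0.13 (edgeR adjusted p = 0.348) at the kept row. Of its 10 tested rows, 1 passed, as higher (0.35, edgeR adjusted p = 0.0245). HSPA4L stood at 0.0243 ± 0.0050 of the HSPA4 level per length in sh-IUR-5 against 0.0154 ± 0.0024 in sh-luc, with no overlap (exact two-sided permutation p = 0.1, 0.125 adjusted over the 5 pairs). With total-read scaling HSPA4 (0.21, edgeR adjusted p = 0.0383) and HSPH1 (0.34, edgeR adjusted p = 0.0138) passed as well.

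HSPB1 (NP_001531.1), the small heat shock protein HSP27, was the most abundant member, at 571, 554 and 486 RPKM in sh-IUR-5 and 693, 600 and 709 in sh-luc. Every sh-IUR-5 library was below every sh-luc library, and the log2 fold change was -0.51 ± 0.08 (SE, edgeR adjusted p = 6.69e-05). It passed in all 6 fits that leave out a library (-0.58 to -0.45), and with the trends on GC content and coding length removed it was -0.26 (edgeR adjusted p = 0.00262). HSF1 (NP_005517.1) itself was read at 8.83, 7.55 and 8.21 RPKM against 7.63, 7.34 and 8.44, with a log2 fold change of -0.12, a 95% confidence interval of -0.33 to 0.08 and overlapping groups (edgeR adjusted p = 0.352). Its 6 tested rows ran from -0.42 to 0.11, and 1 of them passed, as lower (-0.42, edgeR adjusted p = 0.0159).

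Of the tested members with the 3-unit heat shock element, 1 of 6 passed, HSP90AA1, and it was lower, while 45.9% of all tested genes passed. The other 5 (DNAJA1, DNAJB6, HSP90AB1, HSPA8 and HSPD1) did not pass at the kept row, and the 6 log2 fold changes ran from -0.31 to -0.0037. With GC and length trends removed, DNAJA1, HSP90AA1, HSP90AB1, HSPA8 and HSPD1 passed as lower (-0.28, -0.56, -0.21, -0.31 and -0.24). DNAJB6 did not (-0.06), and 22.9% of all genes in that fit were lower. With total-read scaling HSP90AB1 passed as higher (0.20) and the rest did not pass. How many of these genes passed thus depended on the fit. Of 13 tested members with the shorter element, DNAJC6 was higher and HSP90AA1, HSPA1A and HSPB1 were lower. HSPA6, a strictly inducible HSP70 with the longer element, had 3, 0 and 3 reads in sh-IUR-5 and 7, 2 and 3 in sh-luc.

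Of the class A and B J-proteins of the cytosol and nucleus, 1 of 7 tested passed at the kept row (14.3%, against 45.9% of all tested genes). DNAJA1 (NP_001530.1), the most abundant of these, was at 169 ± 13.9 RPKM against 162 ± 13.0 (SD, n = 3 and 3) with a log2 fold change of -0.13 (edgeR adjusted p = 0.228). Its other tested row was lower (-0.29, edgeR adjusted p = 0.0169). DNAJB1, the main partner of inducible HSP70, had 23.1 ± 0.80 against 19.6 ± 1.33 RPKM and a log2 fold change of 0.04 (edgeR adjusted p = 0.74), and DNAJB6, which suppresses aggregation, one of -0.09 (edgeR adjusted p = 0.468). Of the 6 tested DNAJB6 rows, 1 passed, as higher (0.26, edgeR adjusted p = 0.0498).

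DNAJB4, a class B partner of cytosolic HSP70, was lower at its row with the most reads (NP_001304029.1, coding length 894 bases), at 9.38, 9.38 and 9.76 RPKM in sh-IUR-5 and 12.8, 13.1 and 12.6 in sh-luc. That row had a log2 fold change of -0.63 ± 0.10 (SE, edgeR adjusted p = 8.6e-05) and passed in every fit that leaves out a library. The row NP_008965.2 (1014 bases) rose instead, by 0.60 ± 0.16 (SE, edgeR adjusted p = 0.00621), and the other 4 rows had log2 fold changes of 0.20 to 0.50 and did not pass. Reads summed over the 6 rows gave -0.02 (edgeR adjusted p = 0.856). DNAJB4 was the only tested member with rows called in both directions, and whether transcripts or the sharing of reads between rows changed was not tested.

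**Figure D3:**
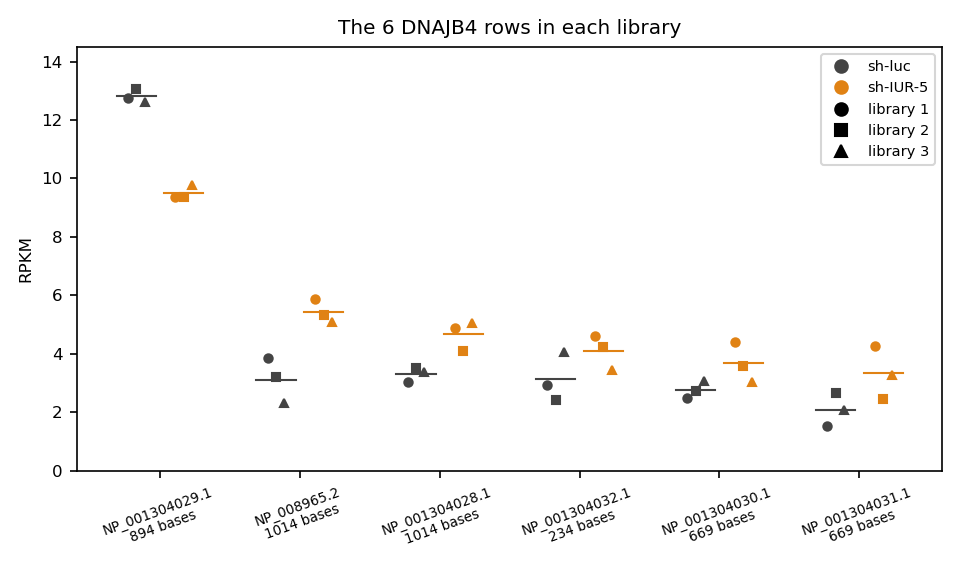
RPKM (y axis) of the 6 DNAJB4 rows in each library, with sh-luc in grey, sh-IUR-5 in orange, a symbol per library and a line at the group mean. The 894-base row is lower in all sh-IUR-5 libraries, while the group means of the other 5 rows are higher in sh-IUR-5.

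The class C J-proteins outside the ER and mitochondria, which serve single tasks rather than general folding, had 2 of 12 tested members higher and 3 lower. That is 41.7% called, against 45.9% of all tested genes. DNAJC6 (NP_001243793.1), the auxilin that lets HSC70 strip clathrin from vesicles, read 10.9, 8.76 and 9.27 RPKM in sh-IUR-5 and 4.93, 5.01 and 4.51 in sh-luc. It was well apart, with a log2 fold change of 0.81 ± 0.10 (SE, edgeR adjusted p = 5.34e-06), and all 3 of its tested rows were higher. DNAJC13 (NP_056083.3), which acts on endosomes in receptor recycling, read 2.66, 2.84 and 2.71 RPKM against 1.33, 1.8 and 1.64, a log2 fold change of 0.59 ± 0.11 (SE, edgeR adjusted p = 0.00042). It has the longest coding sequence of the members, 6732 bases, and did not pass once GC and length trends were removed (0.27, edgeR adjusted p = 0.0589).

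The 3 lower ones were DNAJC17, DNAJC2 and DNAJC21. DNAJC17 (NP_060633.1), a nuclear J-protein with an RNA recognition motif, was at 7.42 ± 0.66 RPKM against 8.56 ± 0.59 (SD, n = 3 and 3; log2 fold change -0.40, edgeR adjusted p = 0.0112). DNAJC2 (NP_055192.1), which binds ribosomes with HSPA14, was at 15.8 ± 2.42 against 17.0 ± 0.10 RPKM (-0.30, edgeR adjusted p = 0.0322), and DNAJC21, needed for large ribosomal subunit maturation, at 17.7 ± 1.92 against 18.7 ± 1.00 RPKM (-0.28, edgeR adjusted p = 0.0333). The RPKM of these 3 overlapped between groups and none passed with total-read scaling (-0.20, -0.10 and -0.07). DNAJC17 passed in 5 of the 6 fits that leave out a library, and DNAJC2 and DNAJC21 in 2 each, with the highest edgeR adjusted p at 0.0588, 0.15 and 0.138. DNAJC17 overlaps ZFYVE19 and DNAJC2 overlaps PMPCB on the opposite strand, and whether the counting used strand is not given in the sources used here.

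Most of the abundant class C members did not pass. DNAJC8, a spliceosome-associated J-protein, had 312 ± 5.67 RPKM against 303 ± 6.45 (SD, n = 3 and 3; log2 fold change -0.15, edgeR adjusted p = 0.0887), and DNAJC9, a histone chaperone, 230 ± 19 against 218 ± 6.55 RPKM (-0.11, edgeR adjusted p = 0.276). DNAJC5, the cysteine string protein of secretory vesicles, came closest, at 8.35, 9.02 and 8.05 RPKM against 5.89, 5.81 and 5.82, with RPKM apart and a log2 fold change of 0.34 (edgeR adjusted p = 0.0503). Its other tested row passed as higher (0.39, edgeR adjusted p = 0.0454). DNAJC7, DNAJC12, DNAJC14 and DNAJC24 had log2 fold changes of -0.16 to 0.20 at the kept row. For DNAJC7, a cochaperone of HSP70 and HSP90, the other 4 tested rows were lower (-0.45 to -0.37).

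The balance of higher and lower calls depended on the scaling. With total-read scaling 21 members were higher and 4 lower, in place of 9 and 11, and over all tested genes 39.3% were higher and 12.0% lower. All 9 higher members were still higher there, joined by HSP90AB1, HSPA4, HSPA5, HSPA9, HSPH1, DNAJA2, DNAJB1, DNAJC3, DNAJC5, DNAJC14, DNAJC24 and DNAJC30, and HSPB1, DNAJC1, HSPE1 and DNAJB4 were still lower. The other 7 lower members were not called.

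**Figure D4:**
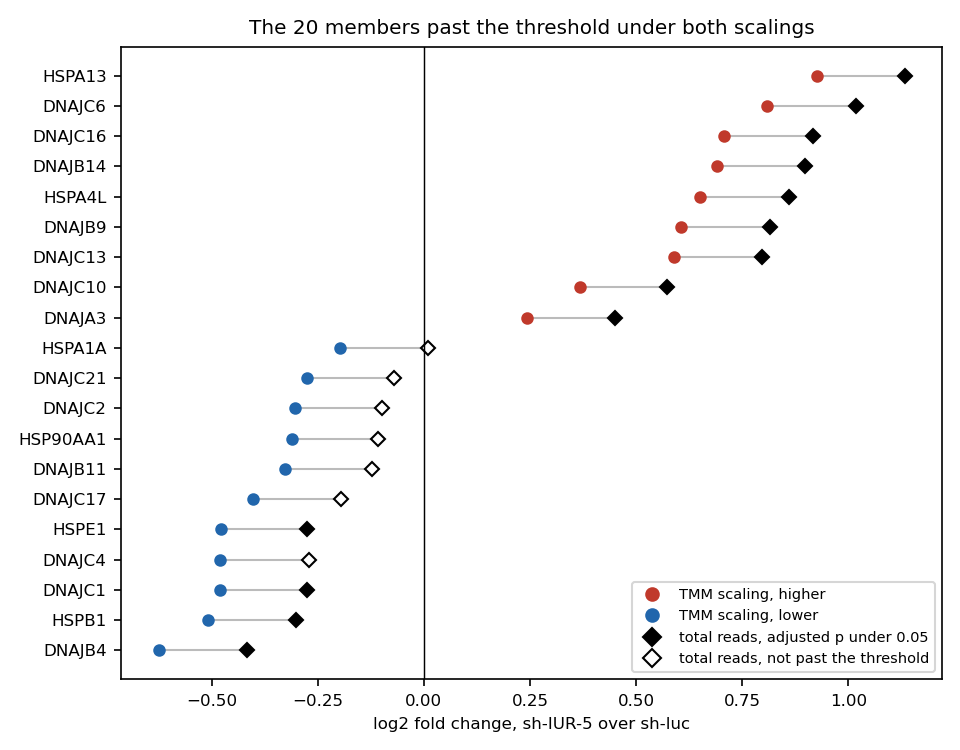
Log2 fold change (x axis, sh-IUR-5 over sh-luc) of the 20 called members with TMM scaling (circles, red higher and blue lower) and with total-read scaling (diamonds, filled where the adjusted p was under 0.05). Every diamond lies to the right of its circle, 13 are filled, and 7 of the 11 lower members have open diamonds.

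Higher and lower members differed in length and level. The 9 higher members had a median coding length of 2349 bases and a median level of 7.23 RPKM (2.04 to 15.1), and the 11 lower ones 1077 bases and 47.3 RPKM (7.99 to 602). Over the 54 tested members Spearman's rho of the log2 fold change was 0.25 with length, -0.18 with GC content and -0.51 with level, and over all tested genes it was 0.32, -0.24 and -0.36. These are descriptions across genes, which share libraries and are not replicates. With GC and length trends removed, 10 members were higher and 18 lower, against 18.7% higher and 22.9% lower of the 8764 genes in that fit, and HSPA8, HSPD1 and HSP90AB1 then passed as lower (-0.31, -0.24 and -0.21, edgeR adjusted p = 0.00724, 0.0223 and 0.0238).

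**Figure D5:**
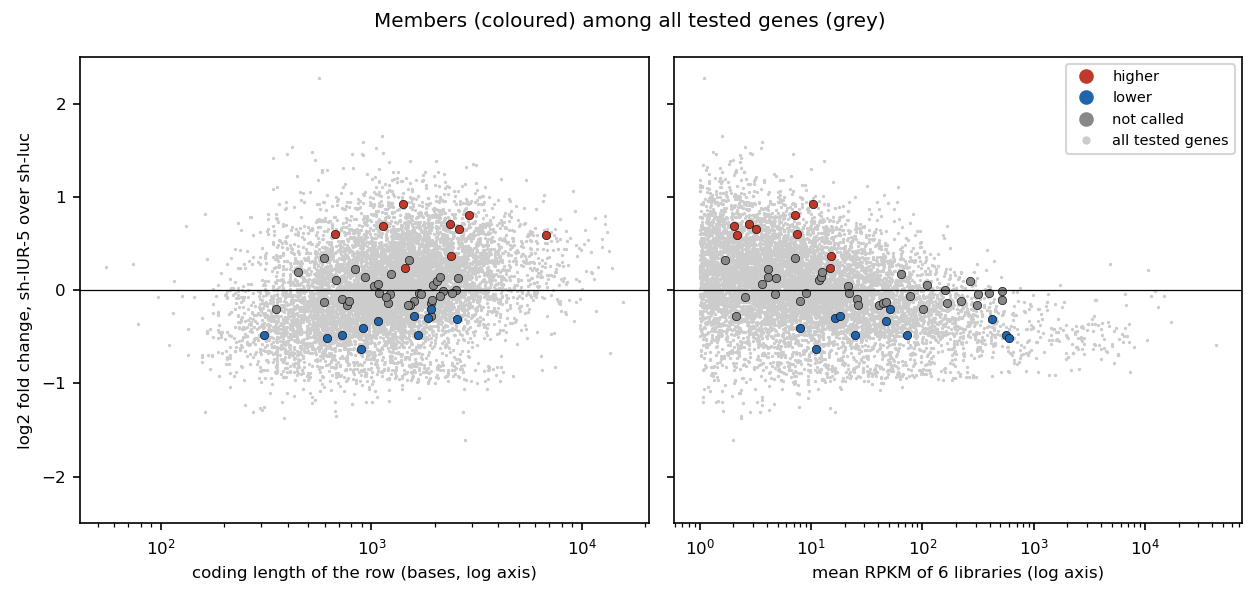
Log2 fold change (y axis, sh-IUR-5 over sh-luc) against the coding length of the row in bases (left, log axis) and the mean RPKM of 6 libraries (right, log axis), with all tested genes in grey and the 54 tested members coloured by call. The 9 higher members all lie at or under 15.1 RPKM, and the members above 200 RPKM lie between -0.51 and 0.10.

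Library 1 stood apart in both groups. Summed over the members, RPKM was 5025 in sh-IUR-5 library 1 against 5690 and 5732 in libraries 2 and 3, and 5035 in sh-luc library 1 against 5618 and 5574. It was the lowest library of both groups for 22 of the 54 members (40.7%), among them HSP90AB1, HSPA8, HSPA5, HSPA9 and HSPD1, against 17.7% of all tested genes. With libraries 2 and 3 alone, 2 against 2, a comparison added after the values had been seen, 10 members were higher and 12 lower (21.7% and 24.3% of all tested genes), and 19 of the 20 called members passed in the same direction. The exception was DNAJC2 (-0.15, edgeR adjusted p = 0.122). With all 6 libraries and a term for the label series, 11 members were higher and 16 lower (27.3% and 29.1% of all tested genes). DNAJA1 (-0.14, edgeR adjusted p = 0.0402), DNAJC8 (-0.15, edgeR adjusted p = 0.0185) and HSPA14 (-0.15, edgeR adjusted p = 0.0378) then passed as lower, as did DNAJC7 and DNAJC19, and DNAJA2 and DNAJC5 passed as higher.

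The 11 members under the minimum were HSPA2, HSPA6, HSPA12A, HSPA12B, DNAJA4, DNAJB5, DNAJB8, DNAJB13, DNAJC15, DNAJC22 and DNAJC27. DNAJB8 had 0 reads, which allows up to 3 reads per library by counting error alone, and the other 10 had 1 to 42 reads over all 6 libraries. In a fit with no minimum none of these 10 passed, and HSPA6 came nearest to it (log2 fold change -1.48, edgeR adjusted p = 0.19). Differences in these genes were not detectable at this depth.

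Other genes of the chaperone network, on a list of 69 cochaperones, chaperonins and ER folding factors, were called about as often as all genes. Of 65 tested, 11 were higher and 19 lower (46.2%), with a median log2 fold change of -0.04. Among the prefoldins, which pass actin and tubulin to the chaperonin TRiC, 4 of 6 were lower and none higher. These were 66.7% called, against 45.9% of all tested genes (23.5% lower and 22.4% higher). PFDN6 fell most, at 67.8 ± 5.62 RPKM in sh-IUR-5 against 94.3 ± 8.94 in sh-luc (SD, n = 3 and 3, log2 fold change -0.67, edgeR adjusted p = 3.43e-05). Of the 8 TRiC subunits only CCT7 was lower (-0.22, edgeR adjusted p = 0.0274), and none was higher, or 12.5% called against the same 45.9%.

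Cochaperones of HSP70 and HSP90 went both ways, with 5 of 25 higher and 8 lower, or 52.0% called against 45.9% of all tested genes. BAG5, which releases nucleotide from HSP70, had the largest rise of the list, at 4.35 ± 0.14 RPKM against 2.15 ± 0.50 (log2 fold change 0.82, edgeR adjusted p = 0.000345). HSF2, a relative of HSF1, rose too, from 2.75 ± 0.58 to 5.19 ± 0.39 RPKM (0.73, edgeR adjusted p = 0.000504).

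Among ER folding and unfolded protein response genes 4 of 18 were higher and 3 lower, or 38.9% called against 45.9% of all tested genes. EIF2AK3, the stress sensor PERK, was higher (1.59 ± 0.04 RPKM against 0.853 ± 0.195, log2 fold change 0.71, edgeR adjusted p = 0.00156). CRELD2 and SDF2L1, stress-induced proteins of the ER lumen, had the largest falls of the list, to 1.95 ± 0.23 RPKM from 2.99 ± 0.60 (-0.80, edgeR adjusted p = 0.00185) and to 151 ± 17.4 RPKM from 215 ± 40.4 (-0.70, edgeR adjusted p = 9.58e-05). Thus ER genes outside the members, like those within, moved in both directions, as did tested genes in general (22.4% higher and 23.5% lower). The reference genes GAPDH and ACTB had log2 fold changes of -0.17 (edgeR adjusted p = 0.0508) and 0.02 (edgeR adjusted p = 0.821).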

How the data were processed

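RNA-seq of total RNA isolated with TRIzol was compared between 3 sh-IUR-5 and 3 sh-luc libraries of K562 cells, grouped by sample title. Per the labels and methods, the authors called bases with CASAVA 1.8, trimmed reads with Trimmomatic 0.32 and mapped them to hg38, and their processing notes also name Bowtie2 2.1.0 and SAMtools 0.1.19. The authors deposited read counts per RefSeq protein accession, not normalized, and RPKM made from them, which equalled the count divided by coding length and total reads in every row. The rule for reads that fit several rows, and any use of strand, is not given in the sources used here. Their deposited table of the comparison (pooled counts, ratio or fold values, p-values and q-values) was not used.

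Counts of the 38204 rows with a mean RPKM of at least 1 were tested with edgeR 4.0.16 in R 4.3.3 (TMM scaling, quasi-likelihood test, two-sided, Benjamini-Hochberg adjustment over all rows, threshold 0.05). The common biological coefficient of variation was 8.05%. P-values measure the spread between these libraries. On simulated counts with 200 of the 38204 rows changed, edgeR recovered 160 with 8 false calls, DESeq2 1.42.0 recovered 147 with 3, and limma 3.58.1 recovered 136 with 5. The simulation drew rows independently, with a common dispersion and no scaling difference between groups. In the data 37.3% of rows were called and rows of a gene can share reads, so these figures are no error rates for this comparison. Symbols were matched by accession for 64.7% of rows. The background over genes took each gene at its row of most reads. Positions and overlaps came from GENCODE 44 on hg38, and a similar gene was one with a transcript match of at least 100 bases at 95% identity or more to a member's coding sequence (BLAST 2.17.0). GC and length trends were removed with mgcv 1.9.3. The members, gene lists and named genes were chosen with earlier results of these data known. The text names all tested heat shock protein members and HSF1, DNAJ members past the threshold with a log2 fold change of at least 0.5 in size or among the 3 most abundant, the 3 largest rises and falls of the network list, and GAPDH and ACTB. Other DNAJ and network genes were named after their values were seen.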

Additional observations from a re-analysis of the deposited data

How the results depend on the processing

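Counts are given as higher and lower, for members (9 and 11) and then for the chaperone network list (11 and 19). Total-read scaling gave 21 and 4, then 28 and 8. Limma on log2(RPKM + 0.1), or with a pseudocount of 1 or 0.01, gave 17 and 3, then 23 and 7 each time. A minimum mean RPKM of 5 gave 9 and 5, then 14 and 10. GC and length trends removed, added after the data were seen, gave 10 and 18, then 10 and 24. An adjusted p under 0.01 gave 8 and 5 members. Leaving out a library gave 8 to 12 higher and 6 to 10 lower members, then 7 to 11 and 13 to 20 network genes. Without sh-luc library 3 the lower members fell to 6 and the higher network genes to 7, without sh-luc library 2 the lower members fell to 7, and without sh-IUR-5 library 2 the higher network genes fell to 7. The causes of these shifts were not tested. Shares over all genes were not worked out for limma, the minimum of 5, the 0.01 threshold, left-out libraries or the replicate block. Shifts of the members there cannot be told from shifts of all genes. Direction turned for HSP90AB1 (0.20 with total reads, 0.19 with limma at each pseudocount), HSPA1A (0.010 with total reads) and HSPA4 (-0.25 with GC and length trends removed). DESeq2, its size factors, no minimum, 1 row per gene, summed rows, the length trend alone, libraries 2 and 3 alone, the accession version and an adjusted p under 0.1 kept every count within 1.5 times. Same-numbered libraries did not deviate together in all pairs (correlations 0.31, 0.088 and -0.013), so the numbers were not taken to pair them. A replicate block gave 11 and 12, then 15 and 23, and a term for the label series 11 and 16, then 16 and 24. Depth limited the 11 members under the minimum.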
